A study of Rattus norvegicus with 24 samples.

Results

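The microRNAs miR-9a and miR-124 were followed through both arms of their hairpins, rno-miR-9a-5p, rno-miR-9a-3p, rno-miR-124-3p and rno-miR-124-5p, in small RNA libraries from rat brain. These 4 mature miRNAs were every row of the count tables whose name begins with rno-miR-9a- or rno-miR-124-, out of 728 miRNA rows. All 4 passed the filter on low counts in every comparison. The tissue came from adult male Sprague-Dawley rats 3 months after surgery. Of the 12 rats, 6 had traumatic brain injury (TBI) by lateral fluid percussion, in which a fluid pulse strikes the intact dura through a left craniectomy, and 6 were sham-operated, with anaesthesia and craniectomy but no impact. The injured rats had been selected by the study for chronic perilesional inflammation on MRI, so they do not stand for all injured rats. From each rat the perilesional cortex and the ipsilateral thalamus were sequenced, giving 6 libraries in each of 4 groups, and the RNA of a region was pooled from several pieces of tissue. These are bulk samples, in which fewer cells of a type and less RNA per cell cannot be told apart.

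A microRNA hairpin is cut into a short duplex, and 1 or both of its strands are loaded onto an Argonaute protein, where bases 2 to 8, the seed, pair with target mRNAs. miR-124 is enriched in neurons and represses PTBP1, a splicing repressor of non-neuronal cells, and the phosphatase SCP1, a partner of the neuronal gene silencer REST. miR-9 is made in neural progenitors and neurons, its 5p arm targets REST itself and its 3p arm targets the REST cofactor CoREST. Together with miR-124, the 3p arm of miR-9 represses BAF53a during the exchange of chromatin remodelling subunits that accompanies neuronal differentiation.

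The 2 arms of miR-9a are shown here with the seed in capitals, because they come from 1 hairpin but carry different seeds, and so can pair with different mRNAs. Sequences are from RefSeq on build GRCr8, and no other mature name among the 693 in that table had either seed.
rno-miR-9a-5p: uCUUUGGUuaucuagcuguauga
rno-miR-9a-3p: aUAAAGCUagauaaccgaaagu

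In rat, 3 genes encode these arms, and their hairpins are shown with both arms in capitals, because the arms are identical in all of them and a read cannot be assigned to 1 gene. Mir9-1 lies at chr2:175974971-175975059 on the plus strand within a lncRNA gene, Mir9-2 at chr2:15933292-15933378 on the plus strand within Mir9-2hg, and Mir9-3 at chr1:142849400-142849489 on the plus strand within the lncRNA gene Mir9-3hg. The hairpins are 89, 87 and 90 bases long and differ in the stem ends and in the loop between the arms.
Mir9-1: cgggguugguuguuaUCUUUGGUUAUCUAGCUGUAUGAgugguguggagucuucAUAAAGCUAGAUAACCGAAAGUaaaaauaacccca
Mir9-2: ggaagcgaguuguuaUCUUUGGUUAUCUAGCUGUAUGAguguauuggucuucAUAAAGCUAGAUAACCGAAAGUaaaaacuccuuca
Mir9-3: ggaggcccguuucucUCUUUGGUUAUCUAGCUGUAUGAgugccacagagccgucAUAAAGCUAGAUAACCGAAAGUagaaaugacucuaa

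The opposite strand of the same loci encodes miR-9b, shown with its seeds in capitals because it is complementary to miR-9a. Bases 1 to 19 of miR-9a-3p are the exact reverse complement of miR-9b-5p, and bases 4 to 21 of miR-9a-5p are that of miR-9b-3p.
rno-miR-9b-5p: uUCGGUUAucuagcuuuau
rno-miR-9b-3p: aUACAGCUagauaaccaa

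miR-9b was close to absent, with at most 9 reads of either arm in any library, against at least 2243 reads of miR-9a-3p, the less abundant of the miR-9a arms.

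Libraries held 744564 to 4069284 miRNA reads in cortex and 523298 to 4139901 in thalamus, and depth did not separate TBI from sham (exact permutation test, two-sided, p = 0.589 in cortex and 0.857 in thalamus). A pair of thalamus libraries stood apart in depth, sham rat 55 with 523298 reads and TBI rat 56 with 538194, and these also had the lowest miR-124-3p of their groups. For the 4 arms, fold changes and ratio differences that use these 2 libraries are followed by the value without them.

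The 5p arm of miR-9a was the most abundant of the 4 in every library, holding 5.66% to 11.1% of all miRNA reads at abundance rank 2 or 3. The other strand, miR-9a-3p, held 0.429% to 1.03%, and miR-124-3p, the main arm of miR-124, held a similar 0.299% to 1.10%. The minor arm miR-124-5p was far lower, at 25 to 781 reads a library. Together the 4 took 11.2% ± 0.946 (SD, n = 6) of miRNA reads in sham cortex, 11.1% ± 1.62 in TBI cortex, 9.72% ± 1.47 in sham thalamus and 8.68% ± 1.26 in TBI thalamus. Adaptor ligation favours some sequences over others, so levels of different miRNAs are read shares and not numbers of molecules.

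Whether injury changed these miRNAs in the perilesional cortex was tested first. None of the 4 passed the test there, where 21 of 371 miRNAs (5.66%) passed at an adjusted p under 0.05 (edgeR quasi-likelihood test, Benjamini-Hochberg adjustment), and none of the 4 had an unadjusted p under 0.05. Levels are CPM, reads scaled to a common library total after TMM normalisation within the region. miR-9a-5p ranged from 82487 to 129925 CPM in sham cortex (median 105415) and from 63648 to 108096 in TBI cortex (median 92672). The lowest library was that of TBI rat 45 and the ranges overlapped. The log2 fold change was −0.27 (SE 0.14, 95% interval −0.56 to 0.03, adjusted p = 0.260), which as a percent change spans −32.2% to 1.80%.

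miR-9a-3p had a sham median of 7522 CPM (6675 to 8399) and a TBI median of 6849 (5493 to 7622) in cortex. The log2 change was −0.17 (SE 0.11, adjusted p = 0.326) and became 0.039 with scaling by library size alone and −0.25 without rat 22. The groups overlapped, with TBI rat 45 again lowest.

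miR-124-3p had a sham median of 6268 CPM (5645 to 9340) and a TBI median of 7074 (5536 to 9827) in cortex, and its log2 change was 0.15 (SE 0.16, adjusted p = 0.611). For miR-124-5p the medians were 171 CPM in sham cortex (120 to 219) and 193 in TBI cortex (143 to 220), and the log2 change was likewise 0.15 (SE 0.16, adjusted p = 0.611). For either arm TBI and sham rats overlapped over most of their range. The value of miR-124-3p dropped to 0.023 without rat 26, and that of miR-124-5p to 0.062 without rat 52.

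**Figure D1:**
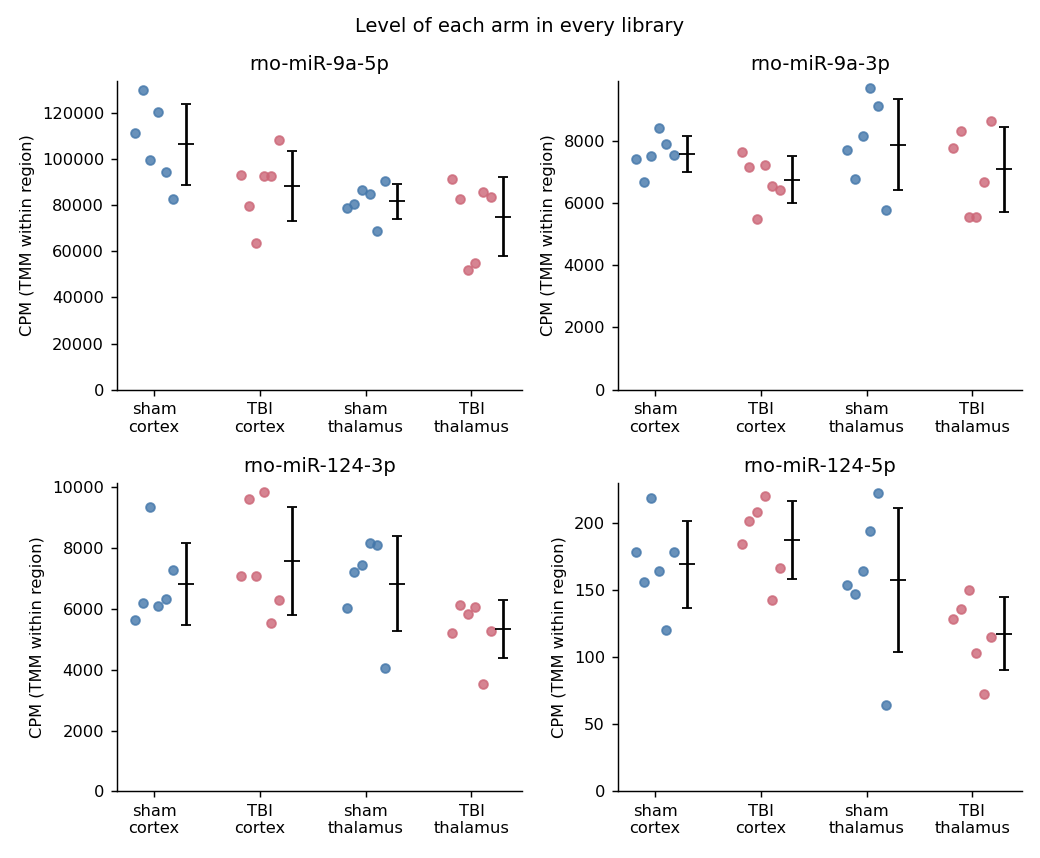
Level of each arm in every library, in CPM with TMM scaling within each region (y axes start at 0), for sham (blue) and TBI (red) rats, 6 per group; black bars are the mean ± SD. TBI and sham points overlap in both regions for all 4 arms, and TBI rat 56 is the lowest miR-124-3p point of its group at 3540 CPM. Each region was scaled by itself, so cortex points cannot be compared with thalamus points here.

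In the ipsilateral thalamus, which receives secondary damage after a cortical impact, none of the 4 passed either or had an unadjusted p under 0.05, where 2 of 390 miRNAs (0.513%) passed. The arms of miR-124 had the more negative estimates. miR-124-3p had a median of 7323 CPM in sham thalamus (4066 to 8150) and 5543 in TBI thalamus (3540 to 6131). All sham libraries but those of rats 26 and 55 exceeded the highest TBI library. The log2 fold change was −0.36 (SE 0.20, 95% interval −0.78 to 0.07, adjusted p = 0.774), and without the 2 shallow libraries it was −0.37 (SE 0.13, adjusted p = 0.412). Left out singly, the 2 libraries moved it in opposite directions, to −0.39 without rat 55 and to −0.18 without rat 56.

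miR-124-5p had medians of 159 CPM (64.2 to 222) in sham and 122 (72.6 to 150) in TBI thalamus. Its log2 change was −0.43 (SE 0.26, adjusted p = 0.774), or −0.47 (SE 0.17, adjusted p = 0.412) without the shallow libraries and −0.22 without rat 50. Its lowest 2 values were those 2 libraries, at 25 and 33 reads.

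miR-9a-5p was less different, with medians of 82738 CPM in sham thalamus (68663 to 90562) and 83271 in TBI thalamus (51757 to 91425). TBI rats 45 and 52 lay below every sham library. The log2 fold change was −0.12 (SE 0.16, adjusted p = 0.850), and −0.13 without the shallow libraries, and it turned to 0.024 without rat 45. For miR-9a-3p the medians were 7921 CPM (5757 to 9700) and 7214 (5535 to 8621), and the log2 change was −0.15 (SE 0.18, adjusted p = 0.830), or −0.21 without them and −0.029 without rat 50.

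Whether the effect of TBI differed between the regions was tested in 1 fit of all 24 libraries. No miRNA passed (0 of 407, 0%, with 16, or 3.93%, at an unadjusted p under 0.05). DESeq2 also gave 0, with 18, or 4.42%, at an unadjusted p under 0.05. The difference, cortex minus thalamus on the log2 scale, was 0.45 (SE 0.27, 95% interval −0.10 to 1.01) for miR-124-3p and 0.53 (SE 0.31, 95% interval −0.11 to 1.16) for miR-124-5p. It was −0.18 (SE 0.21) for miR-9a-5p and −0.05 (SE 0.20) for miR-9a-3p, both of which turned positive with scaling by library size alone (0.096 and 0.23). Without the shallow libraries the 4 differences were 0.52 for miR-124-3p, 0.62 for miR-124-5p, −0.14 for miR-9a-5p and 0.046 for miR-9a-3p. That of miR-124-5p ran from 0.30 without rat 50 to 0.71 without rat 55, and that of miR-9a-5p reached −0.28 without rat 52.

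Cortex and thalamus were then compared within each kind of rat, on CPM with TMM scaling over all 24 libraries. miR-9a-5p was higher in cortex in both, and the 2 arms of miR-124 were higher in the cortex of TBI rats. In sham rats 1 of the 4 passed, where 102 of 407 miRNAs (25.1%) passed in either direction. In TBI rats 3 of the 4 passed, where 111 of 407 (27.3%) did.

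In sham rats miR-9a-5p had a median of 117955 CPM in cortex (91821 to 142617) and 73291 in thalamus (60880 to 84947). The groups did not overlap, and cortex was higher in 6 of 6 rats. The log2 fold change was 0.70 (SE 0.15, adjusted p = 0.000701), or 1.62-fold. In TBI rats the medians were 97669 CPM (68442 to 114073) and 74687 (48313 to 79153), with overlap between the groups, cortex was again higher in 6 of 6 rats, and the log2 fold change was 0.52 (SE 0.15, adjusted p = 0.00946). That TBI call was lost without rat 24 (0.45, adjusted p = 0.0583), rat 50 (0.41, 0.0535), rat 52 (0.35, 0.154) or rat 63 (0.37, 0.116), each an edgeR fit. Rat 50 is a sham rat, and each such fit was filtered and scaled anew. In these fits the median of all miRNAs was −0.09, −0.07, −0.07 and −0.11, against 0.03 with all rats. It was −0.06 without rat 45, where the call was kept. The part of this shift in the lost calls was not tested. Without the shallow libraries the values of miR-9a-5p were 0.69 in sham and 0.55 in TBI rats. With scaling by library size alone the sham value was 0.26 (adjusted p = 0.0944).

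The partner arm did not pass in either group of rats. For miR-9a-3p the log2 difference was 0.27 in sham rats (SE 0.14, adjusted p = 0.192), which became −0.18 with scaling by library size alone, and 0.21 in TBI rats (SE 0.14, adjusted p = 0.307). Without the shallow libraries they were 0.15 and 0.196, and without single rats they fell to 0.17 (rat 55) in sham and 0.058 (rat 52) in TBI rats. Its sham medians were 8627 CPM in cortex and 7488 in thalamus, and its TBI medians 7250 and 6342.

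In TBI rats miR-124-3p had a median of 8135 CPM in cortex (5899 to 10501) and 5102 in thalamus (3167 to 5645), without overlap and higher in the cortex of 6 of 6 rats. The log2 fold change was 0.77 (SE 0.19, adjusted p = 0.00347), 0.68 without the shallow libraries (adjusted p = 0.00218) and 0.59 with scaling by library size alone (adjusted p = 0.0787). miR-124-5p had medians of 222 CPM (152 to 230) and 108 (64.9 to 140), also without overlap and in 6 of 6 rats. Its log2 fold change was 0.94 (SE 0.22, adjusted p = 0.00235), or 1.91-fold, and 0.84 without the shallow libraries.

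In sham rats the arms of miR-124 were not past the threshold, with log2 fold changes of 0.32 (SE 0.19, adjusted p = 0.233) for miR-124-3p and 0.41 (SE 0.22, adjusted p = 0.183) for miR-124-5p, each higher in the cortex of 5 of 6 rats. Without rat 55 alone they dropped to 0.17 and 0.23, and without both shallow libraries to 0.16 and 0.22. Both turned negative with scaling by library size alone (−0.12 and −0.051), which also moved the median of all miRNAs from −0.04 to −0.46. The difference between TBI and sham rats in this contrast is the same quantity as the difference between regions given above, which did not pass.

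**Figure D2:**
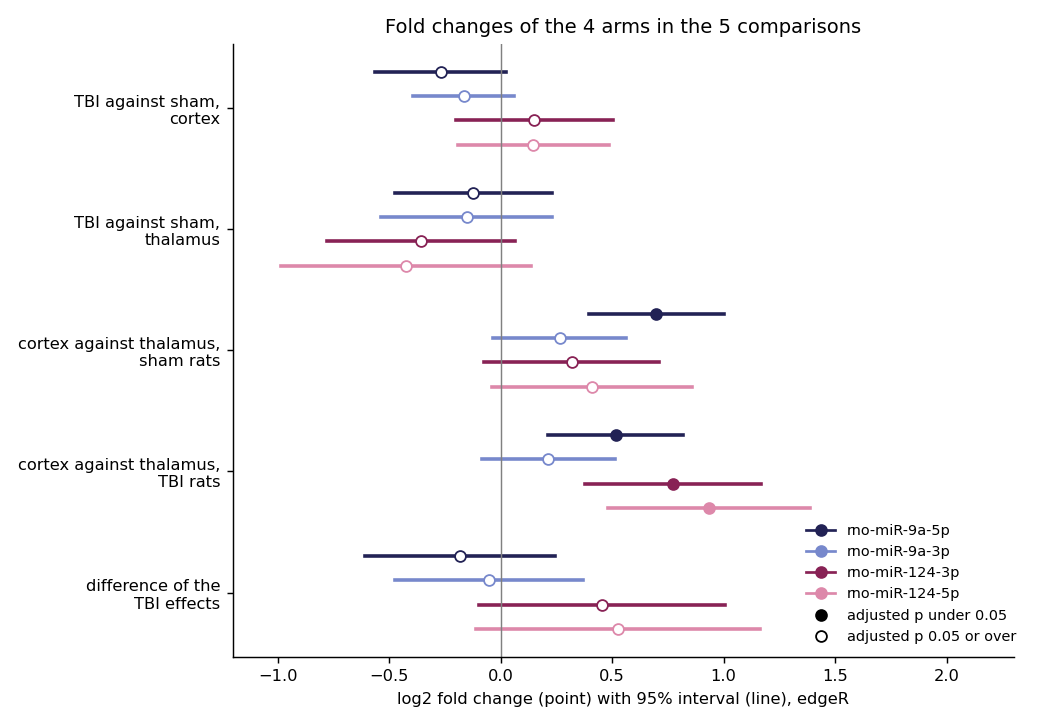
Fold changes of the 4 arms (log2, x axis) in the 5 comparisons, with 95% intervals; filled points passed at an adjusted p under 0.05. Filled points stand only at miR-9a-5p in both cortex against thalamus comparisons and at both arms of miR-124 in TBI rats.

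Ratios of reads within a library need no scaling between libraries, and 12 such tests were made, adjusted together. The arm ratio of miR-9a, 5p to 3p, was 3.80 ± 0.290 (log2, SD, n = 6) in sham cortex, 3.70 ± 0.220 in TBI cortex, 3.39 ± 0.367 in sham thalamus and 3.395 ± 0.181 in TBI thalamus. It was higher in cortex than in thalamus in 11 of 12 rats, by 0.36 on the log2 scale, with an exact sign-flip permutation p = 0.0112 that did not pass after adjustment (adjusted p = 0.135). The exception was sham rat 55, whose thalamus library was the shallowest and had the highest thalamic ratio, 3.98. Without the rats of the 2 shallow libraries the difference was 0.46 (exact permutation, adjusted p = 0.0234). That exclusion was chosen after seeing the data and takes out this exception, so its p-value does not stand as a separate test.

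The arm ratio of miR-124, 3p to 5p, was 5.33 ± 0.241 (log2, SD, n = 6) in sham cortex and 5.49 ± 0.274 in sham thalamus, and 5.32 ± 0.180 and 5.51 ± 0.208 in the same regions of TBI rats. It was higher in cortex in 2 of 12 rats, a difference of −0.18 (exact permutation p = 0.0532, adjusted p = 0.319), or −0.12 without the rats of the shallow libraries. TBI minus sham differences of the miR-9a arm ratio were −0.099 in cortex and 0.0024 in thalamus, and those of the miR-124 arm ratio −0.014 and 0.024, none past the threshold (adjusted p = 0.983 in each of these 4 exact permutation tests). Without the shallow rats the thalamus differences were 0.062 and 0.103.

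The balance of the 2 families, miR-9a-5p to miR-124-3p, was 3.97 ± 0.430 (log2, SD, n = 6) in sham cortex and 3.56 ± 0.467 in TBI cortex. In cortex 3 of 6 TBI rats lay below every sham rat, and the difference was −0.41 (exact permutation p = 0.145, adjusted p = 0.435). In thalamus the ratio was 3.61 ± 0.472 in sham and 3.80 ± 0.563 in TBI rats, a difference of 0.19 (exact permutation p = 0.537). It was 0.20 without both shallow rats, but 0.36 without rat 55 alone and 0.030 without rat 56 alone. The effect of TBI on this ratio, cortex minus thalamus, was −0.60 (exact permutation p = 0.106, adjusted p = 0.424), or −0.81 without both shallow rats.

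**Figure D3:**
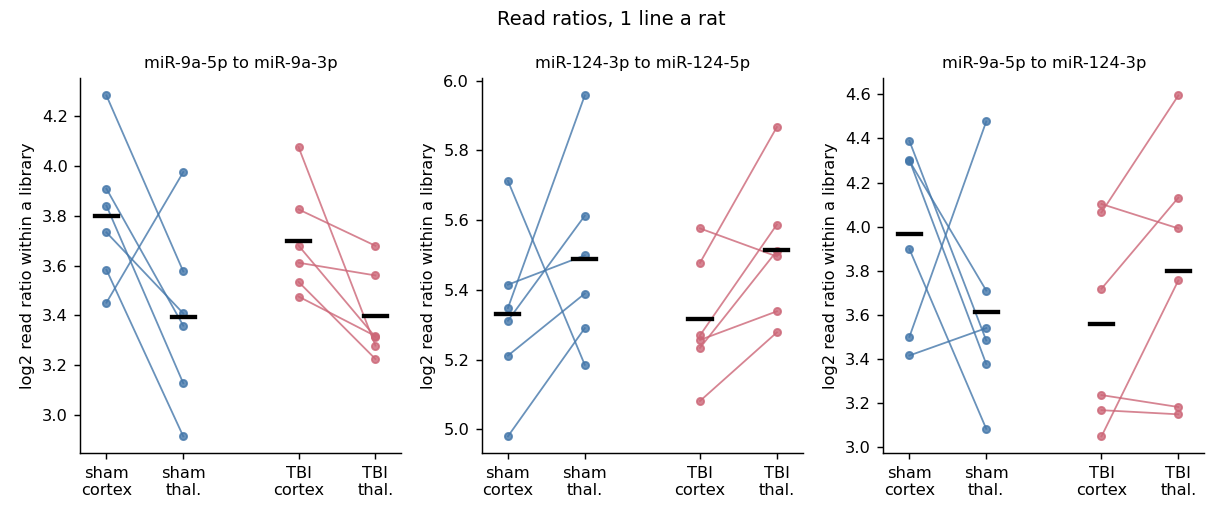
Log2 read ratios within each library (y axes do not start at 0), 1 line per rat joining its cortex and thalamus, sham in blue and TBI in red; black bars are group means. The miR-9a arm ratio falls from cortex to thalamus in 11 of 12 rats.

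Lists of miRNAs known for particular cell types were set beside these results. Of 10 other neuron-enriched miRNAs, 6 were higher in sham cortex than in thalamus and none was lower, where 50 of 407 miRNAs (12.3%) were called higher. Their median log2 fold change was 0.87 against −0.04 over all miRNAs. In TBI rats 7 of the 10 were higher and none lower, where 54 of 407 (13.3%) were called higher (median 1.00 against 0.03). In sham rats the activity-regulated miR-132-3p stood at 1.60 (SE 0.17) and miR-139-5p at 1.30 (SE 0.18) on the log2 scale. Those exceed the 0.70 of miR-9a-5p in size, while miR-138-5p passed at 0.57, and differences between miRNAs were not tested. The list was mixed in direction. miR-134-5p (−0.41 in sham and −0.49 in TBI rats) and miR-129-5p (−0.17 and −0.05) lay below 0 without passing.

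All 4 miRNAs of the oligodendrocyte list were lower in cortex in both groups of rats, where 52 of 407 miRNAs (12.8%) were called lower in sham and 57 of 407 (14%) in TBI rats. Their median log2 fold changes were −1.52 in sham and −1.37 in TBI rats. Their summed level was 4808 to 5739 CPM in sham cortex and 12756 to 21100 in sham thalamus, and 4695 to 6487 and 13816 to 18153 in TBI rats. The neuron-enriched list summed to 255367 to 488404 CPM in sham cortex and 112064 to 279576 in sham thalamus. In TBI rats it summed to 187546 to 253413 and 77588 to 186447. Most of this sum was miR-128-3p, so it does not describe the 10 miRNAs alike. In cortex the average log2 CPM of miR-128-3p was 17.8, against 12.8 for miR-129-5p, the next highest of the list. The part that different cell contents played in the region differences of miR-9a-5p and miR-124 was not tested.

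miR-21-5p, of a glial reaction list, was lower in cortex in both groups (log2 fold change −1.15 in sham and −1.10 in TBI rats). The muscle miRNAs miR-1-3p and miR-133a-3p were higher in cortex in both, while miR-208a-3p and miR-208b-3p of heart had no read in any library. Of the vascular and blood list 1 of 6 tested passed in sham rats, where 50 of 407 miRNAs (12.3%) were called higher. It was the smooth muscle miRNA miR-143-3p, higher in cortex (0.75, SE 0.18). In TBI rats 0 of 6 passed, with miR-143-3p at 0.36 (adjusted p = 0.164, edgeR).

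**Figure D4:**
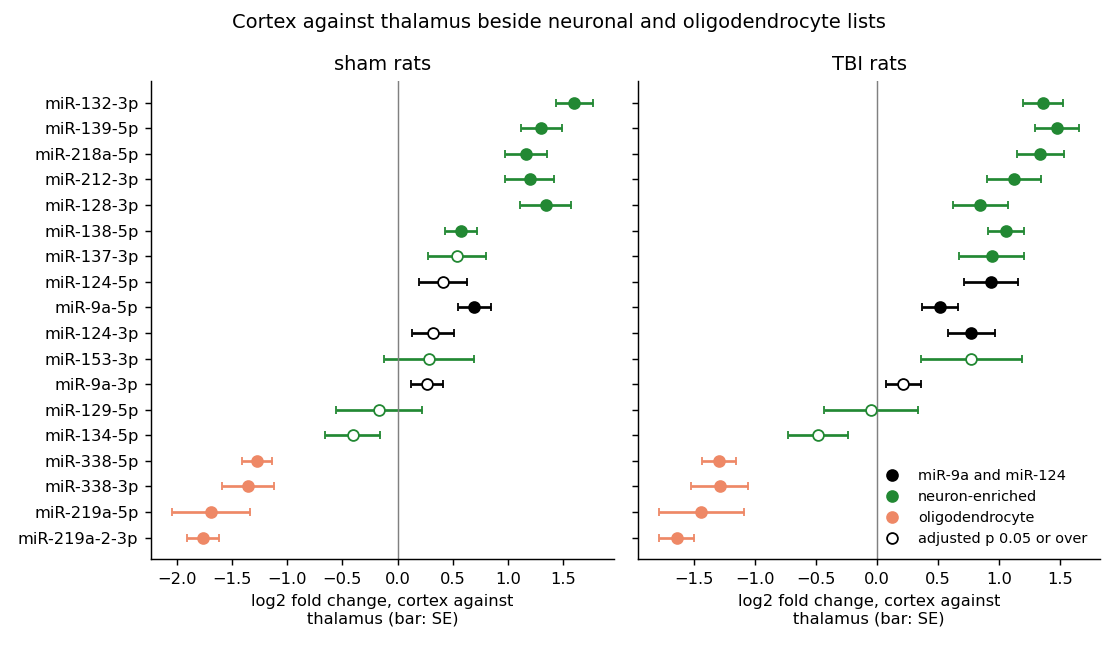
Cortex against thalamus (log2 fold change, bars are SE) for the 4 arms (black), 10 neuron-enriched miRNAs (green) and 4 oligodendrocyte miRNAs (orange), in sham and TBI rats; open points did not pass at an adjusted p under 0.05. The 4 arms lie above 0, and the 4 oligodendrocyte miRNAs lie below −1 in both panels.

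With injury, 2 of the 10 neuron-enriched miRNAs fell in cortex, miR-128-3p (log2 fold change −0.75, SE 0.16, adjusted p = 0.0231, edgeR) and miR-132-3p (−0.55, SE 0.14, adjusted p = 0.0369, edgeR), and none rose, where 10 of 371 miRNAs (2.7%) were called lower and 11 (2.96%) higher. In the fit of all libraries neither passed (adjusted p = 0.103 and 0.0763, edgeR). The study had already called miR-128-3p from the same libraries, so that call is not independent evidence. Its droplet digital PCR of miR-128-3p on the same samples was not significant. In thalamus none of the 10 passed with edgeR or DESeq2, and miR-138-5p (−0.61, unadjusted p = 0.00402) and miR-218a-5p (−0.59, unadjusted p = 0.0222), named here after their values were seen, were the 2 at an unadjusted p under 0.05, as were 22 of 390 miRNAs (5.64%). In the fit of all libraries 1 of the 10 was lower in TBI thalamus, where 2 of 407 (0.491%) were. miR-1-3p also fell in TBI cortex (−0.62, SE 0.15). No miRNA of the vascular and blood list (6 tested) or the glial reaction list (1 of 2 tested, miR-21-5p) passed for TBI in either region. The microglia and leukocyte list had 0 of 6 past the threshold in cortex with edgeR. At an unadjusted p under 0.05 there were 5 of 6, where 81 of 371 miRNAs (21.8%) were, and with DESeq2 2 of 6 passed, where 41 of 371 (11.1%) did. In thalamus 2 of 5 passed, both higher in TBI and the only 2 of 390 miRNAs (0.513%) called there, miR-155-5p (1.45, SE 0.26) and miR-146a-5p (1.04, SE 0.20). The study had already reported these 2 from the same libraries, and the list was chosen with that known, so the count is not independent evidence. The paper also links both to astrocytes, so they do not mark microglia or leukocytes alone. The summed level of this list was 1171 to 1619 CPM in sham cortex and 1589 to 2300 in TBI cortex, and its part in the levels of miR-9a and miR-124 was not tested.

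Over the 24 libraries, which differ in region, injury and depth, the miRNAs whose log2 CPM ran most like that of miR-9a-5p were miR-218a-5p (Pearson r = 0.91), miR-128-3p (0.89) and miR-708-3p (0.88), among 406 others. Its own partner arm came 29th, at 0.64. For miR-9a-3p the 3 nearest were miR-384-5p (0.86), miR-153-3p (0.84) and miR-137-3p (0.82). The arms of miR-124 ran closely together, at 0.92, with miR-133a-3p (0.90 and 0.93) and miR-335 (0.90 and 0.89) beside them. The neighbours changed once each group's mean was subtracted. Nearest to miR-9a-5p were then miR-21-5p (0.90), miR-340-3p (0.87) and miR-101b-3p (0.84), and nearest to miR-9a-3p were miR-137-3p (0.85), miR-384-5p (0.85) and miR-142-3p (0.81). The arms of miR-124 then had r = 0.83, at rank 8 for miR-124-3p and 14 for miR-124-5p, with miR-379-3p (0.94 and 0.93) above it in both. The arms of miR-9a had r = 0.38, at ranks 74 and 97. miR-9a-5p and miR-124-3p had r = 0.36 over all libraries and −0.31 after that subtraction.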

How the data were processed

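Total RNA of the perilesional cortex and ipsilateral thalamus was made into small RNA libraries with a NEBNEXT kit and sequenced on a NextSeq 500. The authors trimmed adapters, checked quality with FastQC, mapped reads to rat build RGSC3.4 and annotated them with miRBase 20. The deposited tables hold the authors' raw read counts per miRNA, 1 column per library. Deposited tables of the same counts scaled to a common library total were not used, nor were tRNA rows of the cortex table. No molecular identifiers were stated, so reads are not independent molecules.

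Counts were tested with edgeR 4.0.16 in R 4.3.3 (filterByExpr, TMM, quasi-likelihood F test, Benjamini-Hochberg adjustment, threshold 0.05). TBI was tested against sham within each region, as the study did, and the regions in 1 fit of all 24 libraries. Each SE was obtained as |log2 fold change| over √F. Read ratios are log2 with 0.5 read added to each arm, tested by exact permutation over rats, two-sided, with 924 divisions of the 12 rats or sign flips between regions. Scripts were tested on simulated counts. Alternatives were DESeq2 1.42.0, other scalings, no filter, a rat block, each rat left out, and, chosen after seeing the data, leaving out the 2 thalamus libraries under 600000 reads.

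Each rat gave both regions, so rat numbers pair the libraries. Deviations from group means correlated within rats at a median r of 0.38 (−0.18 to 0.64, over 0.1 in 8 of 12), against −0.06 between rats. The groups differed in this: r was at least 0.30 for every TBI rat. Sham rats 34 (0.49) and 38 (0.21) were positive, while sham rats 26 (−0.02), 32 (−0.17), 50 (−0.18) and 55 (−0.07) were negative. For those negative sham rats the pairing rests on the rat numbers alone. No 2 libraries of a group agreed within sampling noise. Named were the 4 arms, miR-9b, the 3 miRNAs most like each arm, and up to 4 passing miRNAs of each cell type list. Some list members that did not pass were named beside them. The members and lists were chosen with earlier results of these data known.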

Additional observations from a re-analysis of the deposited data

Results flagged for a closer look

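Within groups of 6 libraries, the gap of the lowest or highest value to its neighbour was compared with the whole range (Dixon's 95% critical value) in 28 sets of values, and 1 stood out, where chance gives about 1.4. It was miR-124-3p in the thalamus of TBI rat 56, at 3540 CPM, against 5215 in the next library, a gap of 0.646 of the range. That library held 538194 miRNA reads, and the part of its depth in the low value was not tested.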

How the results depend on the processing

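With scaling by library size alone, miR-9a-3p in the cortex of TBI rats turned to 0.039, and in sham rats the cortex against thalamus values turned to −0.18 (miR-9a-3p), −0.12 (miR-124-3p) and −0.051 (miR-124-5p), while miR-9a-5p fell short at 0.26 (adjusted p = 0.0944, edgeR), as did miR-124-3p in TBI rats at 0.59. The difference of TBI effects turned to 0.096 for miR-9a-5p and 0.23 for miR-9a-3p, and without the shallow libraries to 0.046 for miR-9a-3p. That scaling called 39 miRNAs in cortex for TBI (36 higher, 3 lower, against 11 and 10) and 168 between regions in sham rats (22 higher, 146 lower, against 50 and 52). For TBI in cortex DESeq2 called 41 and the fit of all libraries 5, and in thalamus the latter called 5. The cause was not tested. The miR-9a arm ratio between regions passed without pairing the rats (0.36, adjusted p = 0.0390, permutation) and without the shallow rats (0.46).

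The replicate block by rat gave 0.69 for miR-9a-5p in sham and 0.52 in TBI rats, with 128 and 131 miRNAs called, and changed no call of the 4 arms. TBI against sham could not be blocked, since each rat was 1 or the other.

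Leaving out 1 rat at a time, TBI calls in cortex ran from 4 to 30, being 6 without rat 24, 7 without 26, 8 without 32, 4 without 38, 6 without 45, 5 without 50 and 12 without 52. In thalamus they ran from 0 to 2, with 0 in edgeR without rats 26, 32 or 34 (17, 28 and 22 at an unadjusted p under 0.05) and 1 without rat 38. miR-9a-5p ran from −0.11 to 0.024 for TBI in thalamus, positive without rat 45. This range does not hold the value of all rats, −0.12, and the cause was not tested. Each such fit chose its filter and scaling anew. It ran from 0.35 to 0.55 between regions in TBI rats, and miR-9a-3p from −0.12 to 0.041 for the difference of TBI effects. The miR-9a arm ratio ran from −0.093 to 0.12 for TBI in thalamus and from 0.32 to 0.44 between regions, passing without rat 55 only. That of miR-124 ran from −0.084 to 0.063 for TBI in cortex, −0.047 to 0.12 in thalamus, −0.24 to −0.14 between regions (passing without rat 50 only) and −0.13 to 0.099 for the difference of TBI effects. The ratio of miR-9a-5p to miR-124-3p ran from −0.024 to 0.15 between regions, against 0.055 with all rats (exact sign-flip permutation, adjusted p = 0.983). Without both shallow rats it was 0.22, outside that range. With 6 rats a group, the 95% intervals for TBI still hold changes such as −32.2% for miR-9a-5p in cortex. They reach −49.5% for miR-124-5p in thalamus and 41.6% for miR-124-3p in cortex.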
